A study of Mus musculus with 36 samples.

Results

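Retinal ganglion cells (RGCs) are the neurons that send their axons from the retina through the optic nerve, and they fall into many types that differ in shape, wiring and light response. The 9 genes described here, Opn4, Eomes, Tbr1, Cartpt, Foxp2, Penk, Jam2, Tbx20 and Kcng4, are each known as a marker of some of these types. They were taken by symbol from a list of subtype markers and found in the gene count table, which holds 55487 genes, and each symbol matched 1 row. The question was how their RNA levels in the retina compared before and after optic nerve injury.

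The mice were C57BL/6 animals aged 2 to 4 months. Groups were bilaterally naïve mice, mice 3 days (3 D) or 2 weeks (2 W) after a unilateral optic nerve crush with forceps, and mice 3 D, 2 W or 6 weeks (6 W) after microbeads were injected into the anterior chamber of 1 eye to raise its pressure, a model of glaucoma. RNA of 2 mice of the same sex was pooled in equal amounts for each library, so each group had 1 female and 1 male pool (n = 2), and the spread between pools also holds any difference between the sexes. The series covered the retina, the unmyelinated optic nerve (UON) and the myelinated optic nerve (MON) in 36 libraries, and 12 of these were retina.

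Opn4 encodes melanopsin, the photopigment of the intrinsically photosensitive RGCs, which set the body clock and the pupil reflex. Eomes, Tbr1 and Tbx20 encode T-box transcription factors. Eomes is needed for melanopsin cells to form, and Tbr1 is used by a group of OFF-type RGCs that includes the cells marked by Jam2. Cartpt and Penk are precursors of neuropeptides, Foxp2 encodes a forkhead transcription factor of the F-RGCs, and Kcng4 is a modifying subunit of potassium channels used to mark the large alpha RGCs. Some of the 9 are not restricted to RGCs in the whole retina: Penk and Cartpt are also used by amacrine cells, Jam2 by endothelium and Kcng4 by some bipolar cells. In bulk tissue, fewer cells of a type and less RNA per cell cannot be told apart.

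The retina libraries held 19931516 to 55990831 counts. The female glaucoma 3 D library was the shallowest. All 10 bipolar cell markers were detected in each retina library. Detection alone does not check the tissue label, since their levels in the nerve were not compared. The female glaucoma 3 D library was also the lowest outside the crush groups on 8 pan-RGC markers (Rbpms, Rbpms2, Tubb3, Sncg, Thy1, Pou4f1, Pou4f2 and Pou4f3). Their summed level was 241.7 CPM (counts scaled to the size of the library) against 452.4 in the male pool of the same group and 562.5 and 494.4 in the naïve pools. The female and male crush pools were at 316.5 and 275.2 CPM at 3 D and at 115.6 and 117.9 at 2 W. The male glaucoma 2 W library had the lowest summed level of 10 housekeeping genes, 5813 CPM, where the other retina libraries ranged from 6173 to 7553 CPM.

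Opn4, Eomes and Tbx20 are the members whose 250 bases before the transcription start are printed, because their pools lay below both naïve pools at both crush times and these windows lie outside the gene's annotated exons. The sequences are those of RefSeq (GRCm38.p6), 5′ to 3′ on the strand of the gene, and capitals mark a TATA box (TATANAA, where N is any base). The Opn4 window is chr14:34600143-34600392 on the minus strand, the Tbx20 window chr9:24774304-24774553 on the minus strand and the Eomes window chr9:118477939-118478188 on the plus strand.
Opn4: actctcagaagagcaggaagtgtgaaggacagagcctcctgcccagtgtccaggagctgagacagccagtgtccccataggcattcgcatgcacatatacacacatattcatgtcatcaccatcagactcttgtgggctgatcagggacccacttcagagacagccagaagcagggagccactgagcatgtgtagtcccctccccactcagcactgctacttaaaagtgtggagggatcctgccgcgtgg
Tbx20: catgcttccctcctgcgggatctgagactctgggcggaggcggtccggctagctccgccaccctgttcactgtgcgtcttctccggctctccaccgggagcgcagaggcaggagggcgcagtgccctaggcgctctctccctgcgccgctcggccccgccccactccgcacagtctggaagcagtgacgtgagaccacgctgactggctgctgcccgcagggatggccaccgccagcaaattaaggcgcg
Eomes: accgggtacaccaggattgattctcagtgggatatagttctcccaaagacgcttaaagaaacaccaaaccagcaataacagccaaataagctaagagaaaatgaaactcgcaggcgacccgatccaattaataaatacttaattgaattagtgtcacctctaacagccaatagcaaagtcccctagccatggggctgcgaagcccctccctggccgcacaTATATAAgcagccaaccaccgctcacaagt

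RefSeq windows were found for 6 of the 9 members. On either strand, a T-box site (AGGTGTNA) was in 0 of the 6 and in 2.68% of 32851 promoter windows of the same length, and a POU4 site (ATNATTAAT, the letters bound by the BRN3 factors of RGCs) was in 0 of the 6 and in 0.935% of all windows. A TATA box was in 10.4% of all windows and in Eomes alone among the 6, beginning at position -30 from the start site. A homeodomain core (TAATTA) was in 4.84% of all windows and in Tbr1 alone among the 6, and a cAMP response element (TGACGTCA) was in 1.55% and in Cartpt alone. The TATA, homeodomain and cAMP letters were chosen after the sequences had been read, so a match among the 6 was fixed in advance. The Tbr1 and Cartpt windows lie in exons of a longer annotated transcript. The base composition of the printed windows ranged from 46.4% G and C at Eomes to 68.8% at Tbx20. A match is only a run of letters, and the data hold no measure of binding.

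In naïve retina the 9 genes spanned a wide range per length. Cartpt was the highest at 224 ± 11.6 FPKM (SD, n = 2; FPKM are fragments per kilobase of transcript scaled to library depth), followed by Jam2 at 32.0 ± 1.34, Penk at 18.0 ± 14.2 and Kcng4 at 6.95 ± 1.06. Opn4 stood at 2.24 ± 0.0384 FPKM and Eomes at 1.46 ± 0.312. Foxp2 at 0.553 ± 0.408, Tbr1 at 0.382 ± 0.241 and Tbx20 at 0.207 ± 0.0075 FPKM were the lowest. In this order Penk did not differ from Jam2 or Kcng4 by more than its own SD, and the pools of Foxp2 and Tbr1, and of Tbr1 and Tbx20, overlapped, while the other neighbours lay apart by more than their spread. The 2 naïve pools differed most for Penk (28.1 FPKM in the female and 8.01 in the male pool), Foxp2 (0.842 and 0.264) and Tbr1 (0.552 and 0.211), so the naïve level of these 3 genes is poorly fixed.

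**Figure D1:**
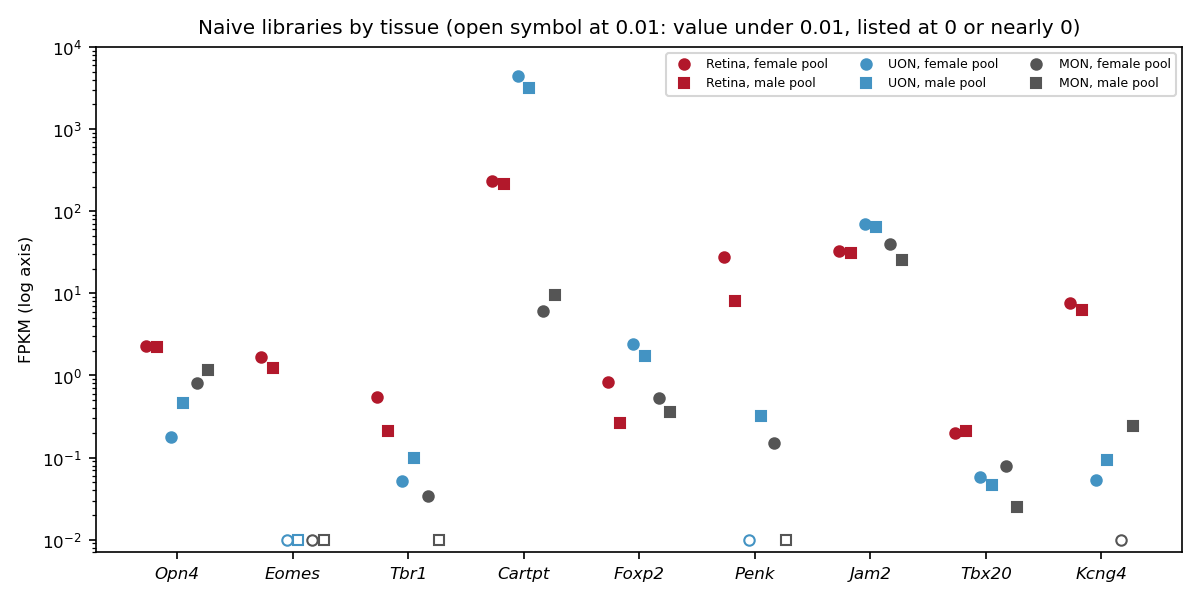
FPKM (log axis) of the 9 subtype genes in the naïve retina, UON and MON libraries, with circles for female and squares for male pools and open symbols for values under 0.01. Eomes, Penk and Kcng4 are well above the nerve values in both retina pools, while Cartpt is highest in the UON, at 4440 and 3150 FPKM.

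The same genes were also measured in the naïve optic nerve. Eomes was listed at 0 in both naïve UON and both naïve MON libraries. Penk reached at most 0.319 FPKM and Kcng4 at most 0.243 in the 4 naïve nerve libraries. Cartpt was at 4440 FPKM in the female and 3150 in the male naïve UON pool, above both retina pools, and at 6.06 and 9.42 in the MON. Jam2 was at 70.3 and 63.7 FPKM in the naïve UON, also above both retina pools, and at 39.9 and 25.5 in the MON. Foxp2 was at 2.44 and 1.72 FPKM in the naïve UON against 0.842 and 0.264 in the retina. Opn4 was at 0.809 and 1.16 FPKM in the naïve MON and 0.179 and 0.461 in the UON, below both retina pools (2.26 and 2.21). Tbr1 was at most 0.0986 FPKM and Tbx20 at most 0.0779 in the 4 naïve nerve libraries, below their retina pools. Over all injured groups Cartpt in the UON ranged from 933 FPKM (female glaucoma 3 D) to 4810 (male glaucoma 6 W). At 3 D its female and male UON pools were at 1270 and 945 FPKM after crush and 933 and 1530 after microbeads. At 2 W they were at 3340 and 2540 after crush and 4220 and 1910 after microbeads, and at glaucoma 6 W at 3690 and 4810. The study itself reports Cartpt as significantly downregulated in its disease models. Here the tissue levels are descriptions and were not tested.

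Across the 8 retina comparisons, none of the 9 members passed the test (edgeR quasi-likelihood, adjusted p below 0.05 and a log2 fold change beyond 1 in size). All 9 had enough counts to be tested each time. By DESeq2, the count of members called was also 0 in each comparison. At an unadjusted p under 0.05 there were 3 members for crush 3 D against naïve (6.34% of all genes tested), 2 for crush 2 W (8.99%), 1 for glaucoma 3 D (6.09%), and 0 for glaucoma 2 W (6.29%) and for glaucoma 6 W (5.67%). There was 1 for crush 2 W against crush 3 D (6.37% of all genes), 1 for crush 3 D against glaucoma 3 D (4.34%) and 3 for crush 2 W against glaucoma 2 W (8.12%). The share of all tested genes called was 0.0221% at crush 3 D, 0.313% at crush 2 W, 0.00429% at glaucoma 3 D, 0% at glaucoma 2 W and 0.00858% at glaucoma 6 W. It was 0.0485% for crush 2 W against crush 3 D, 0.0081% for crush 3 D against glaucoma 3 D and 0.113% for crush 2 W against glaucoma 2 W, so 0 of 9 members is near the background each time. At glaucoma 2 W, where edgeR called 0 genes, 1465 were at an unadjusted p under 0.05 and DESeq2 called 100. The values below are therefore sizes with intervals, and "lower" and "higher" describe where the pools lay.

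Melanopsin RNA was lowest 2 W after crush. Opn4 was at 5.71 CPM in the female and 5.43 in the male naïve pool, at 2.95 and 5.05 at crush 3 D, and at 1.87 and 1.99 at crush 2 W. After microbeads the same pools gave 2.92 and 5.86 CPM at 3 D, 4.21 and 6.13 at 2 W, and 4.86 and 5.18 at 6 W. Both crush 2 W pools lay below the other 10 retina libraries, at 34.7% of the naïve mean. The fitted log2 fold change at crush 2 W was -1.54 (SE 0.36, 95% interval -2.40 to -0.69), with an unadjusted p of 0.00405 and an adjusted p of 0.212 by edgeR, and with an adjusted p of 0.0581 by DESeq2. At crush 3 D it was -0.51 (interval -1.35 to 0.33), and the female pool of that group was at 51.6% and the male pool at 93% of the naïve pool of its sex.

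Opn4 also separated the injuries at 2 W without passing the test. Crush 2 W lay below glaucoma 2 W by a log2 fold change of -1.39 (SE 0.36, 95% interval -2.18 to -0.60, unadjusted p 0.00286, adjusted p 0.319), and below crush 3 D by -1.03 (interval -1.89 to -0.18, adjusted p 0.699). In the glaucoma groups the female pools were the lower ones, at 51% (3 D), 73.7% (2 W) and 85% (6 W) of the female naïve pool, and the male pools were at 108%, 113% and 95.4% of the male naïve pool. The log2 fold changes were -0.40 at 3 D, -0.15 at 2 W and -0.16 at 6 W, each with an interval that spans 0.

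**Figure D2:**
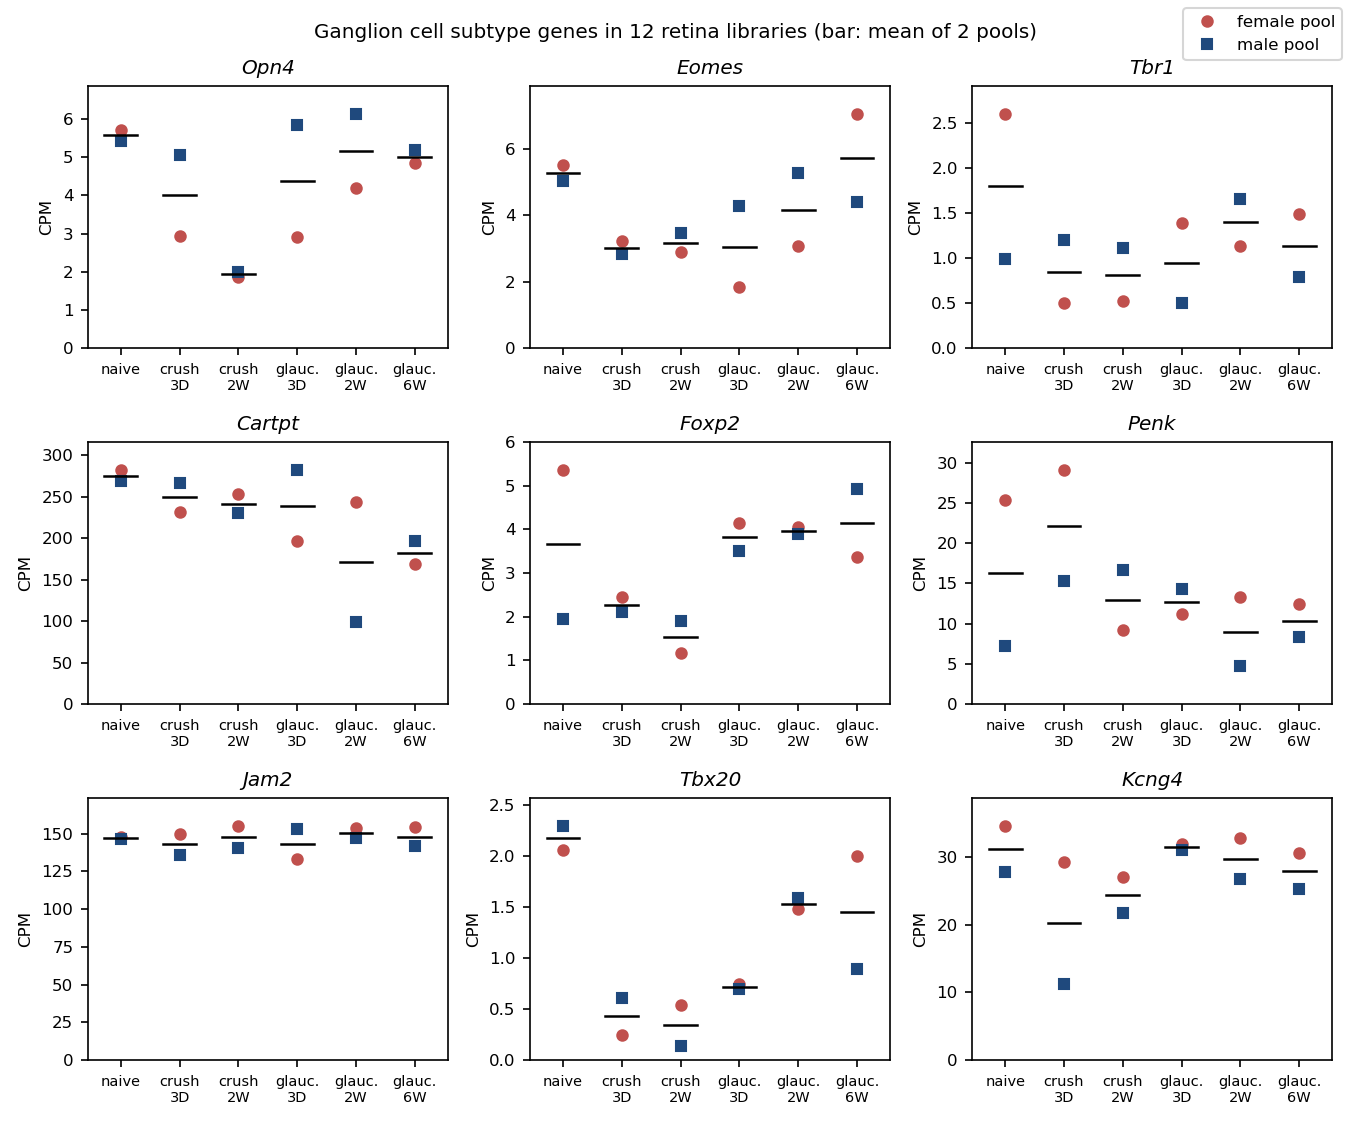
CPM of each subtype gene in the 12 retina libraries, by group, with circles for female pools, squares for male pools and a bar at the mean of the 2 pools. Opn4 is lowest in both crush 2 W pools (1.87 and 1.99 CPM), Tbx20 is below both naïve pools in every injured group, and Jam2 stays between 133 and 155 CPM.

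Tbx20, the T-box gene with the fewest reads, had the largest fitted differences of the 9. It was at 2.05 and 2.29 CPM in the female and male naïve pools, 0.248 and 0.610 at crush 3 D, and 0.542 and 0.139 at crush 2 W. After microbeads it was at 0.741 and 0.697 CPM at 3 D, 1.47 and 1.58 at 2 W, and 1.99 and 0.895 at 6 W. All 10 injured libraries lay below both naïve libraries. These levels rest on few reads: 87 and 83 counts in the naïve pools, 8 and 24 at crush 3 D and 29 and 5 at crush 2 W, where 1 count stands for 75 bases of coverage, so that an untrimmed pair of 150-base reads adds 4. The log2 fold change was -2.31 at crush 3 D (SE 0.84, 95% interval -4.32 to -0.29, adjusted p 0.754), -2.67 at crush 2 W (SE 0.86, interval -4.73 to -0.61, adjusted p 0.404) and -1.59 at glaucoma 3 D (SE 0.54, interval -2.85 to -0.34, adjusted p 0.729). By 2 W and 6 W after microbeads it was -0.51 and -0.63, with intervals that span 0. The difference between crush 2 W and glaucoma 2 W was -2.19 (interval -3.83 to -0.55, adjusted p 0.5).

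Eomes was lower at both crush times and at glaucoma 3 D, by similar amounts. Its levels were 5.50 and 5.02 CPM in the naïve pools, 3.23 and 2.82 at crush 3 D and 2.88 and 3.46 at crush 2 W, and the naïve and crush pools did not overlap. The log2 fold change was -0.80 (95% interval -1.57 to -0.03, adjusted p 0.783) at crush 3 D and -0.74 (interval -1.51 to 0.03, adjusted p 0.569) at crush 2 W, and crush 2 W differed from crush 3 D by 0.06 (interval -0.71 to 0.83). After microbeads the pools of a group lay far apart, at 1.83 and 4.27 CPM at 3 D, 3.07 and 5.26 at 2 W, and 7.05 and 4.40 at 6 W. Both glaucoma 3 D pools still lay below both naïve pools. The log2 fold change there was -0.83, with a wider interval (-1.96 to 0.30, adjusted p 0.886). Crush 3 D differed from glaucoma 3 D by 0.01 (SE 0.45). At glaucoma 2 W and 6 W the log2 fold changes against naïve were -0.38 and 0.15, with intervals that span 0. The lowest of the 12 values was in the female glaucoma 3 D library, which was also low in the pan-RGC markers.

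Tbr1 and its partner marker Jam2 gave values of very different precision. Tbr1 was at 2.60 CPM in the female naïve pool and 0.993 in the male. It was at 0.496 and 1.19 at crush 3 D, 0.524 and 1.11 at crush 2 W, 1.38 and 0.501 at glaucoma 3 D, 1.14 and 1.65 at glaucoma 2 W, and 1.49 and 0.783 at glaucoma 6 W. The female naïve value was the highest of the 12, the male one was within the injured range and no injured group had both pools below the male naïve pool. The log2 fold change at crush 2 W was -1.27 with an interval from -3.20 to 0.65, and without the female naïve pool it was 0.19.

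Jam2, an adhesion molecule of cell junctions, was the most constant of the 9. Its lowest value was 133 CPM (female glaucoma 3 D) and its highest 155 (female crush 2 W), a ratio of 1.16. At crush 2 W its log2 fold change was -0.01 with a 95% interval of -0.26 to 0.25. The 10 endothelial markers, of which 10 were detected in each library, had a summed level of 234.7 to 313.4 CPM over the 12 libraries and a median log2 fold change of 0.44 at glaucoma 3 D, where Jam2 was at -0.04 (interval -0.36 to 0.29). Their part in the Jam2 level was not tested.

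Foxp2 lay lower after crush than after microbeads at both times the injuries share. It was at 5.36 and 1.96 CPM in the naïve pools, 2.45 and 2.11 at crush 3 D, and 1.16 and 1.91 at crush 2 W. The glaucoma pools were at 4.15 and 3.51 (3 D), 4.05 and 3.89 (2 W) and 3.37 and 4.92 (6 W). Both crush groups lay below the glaucoma group of the same time with no overlap. Crush 2 W differed from glaucoma 2 W by -1.36 (SE 0.49, 95% interval -2.46 to -0.27, unadjusted p 0.0195, adjusted p 0.544), and crush 3 D from glaucoma 3 D by -0.75 (interval -1.83 to 0.34). Against naïve, where the female pool was far above the male, crush 2 W was at -1.16 (interval -2.55 to 0.23).

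The neuropeptide genes differed in how the pools behaved. Cartpt, the precursor of the CART peptide found in ON-OFF direction-selective RGCs, was at 282 and 269 CPM in the naïve pools, 231 and 267 at crush 3 D and 253 and 230 at crush 2 W. At crush 2 W its log2 fold change was -0.20 with an interval of -0.49 to 0.09. After microbeads it was at 197 and 282 CPM at 3 D, 243 and 98.3 at 2 W, and 169 and 196 at 6 W. The male glaucoma 2 W value was the lowest of the 12, in the library with the lowest housekeeping sum. When the female glaucoma 2 W pool was left out, crush 2 W was higher than that remaining male pool by a log2 fold change of 1.38 with an adjusted p of 0.0476 (edgeR), the only call of a member under any setting, while with all libraries the difference was 0.52 (interval -0.22 to 1.26, adjusted p 0.701).

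Penk, the precursor of the enkephalins, varied as much within as between groups. It was at 25.4 and 7.20 CPM in the naïve pools, 29.1 and 15.3 at crush 3 D, 9.20 and 16.7 at crush 2 W, 11.2 and 14.2 at glaucoma 3 D, 13.4 and 4.67 at glaucoma 2 W, and 12.4 and 8.31 at glaucoma 6 W. Its log2 fold changes against naïve ran from -0.82 (glaucoma 2 W) to 0.53 (crush 3 D), and each 95% interval reached beyond 1 in size on at least 1 side.

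Kcng4 was at 34.6 and 27.9 CPM in the naïve pools and at 27.0 and 21.7 at crush 2 W. At crush 3 D the female pool was at 29.2 CPM and the male pool at 11.3, the lowest of the 12. The log2 fold change at crush 3 D was -0.73 (95% interval -1.44 to -0.03, adjusted p 0.78), and without that male pool it was -0.24. In the same library 61% of the Kcng4 counts were assigned to the transcript Kcng4-202, against 0% in the other 11 retina libraries. On the FPKM scale the same male pool was at 4.25 against 6.20 in the male naïve pool, and the log2 fold change at crush 3 D was -0.35 by limma on log2(FPKM + 0.1), with an adjusted p of 0.738. After microbeads the gene was close to naïve, with log2 fold changes of 0.03, -0.07 and -0.16 at 3 D, 2 W and 6 W and intervals that together ran from -0.56 to 0.43.

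**Figure D3:**
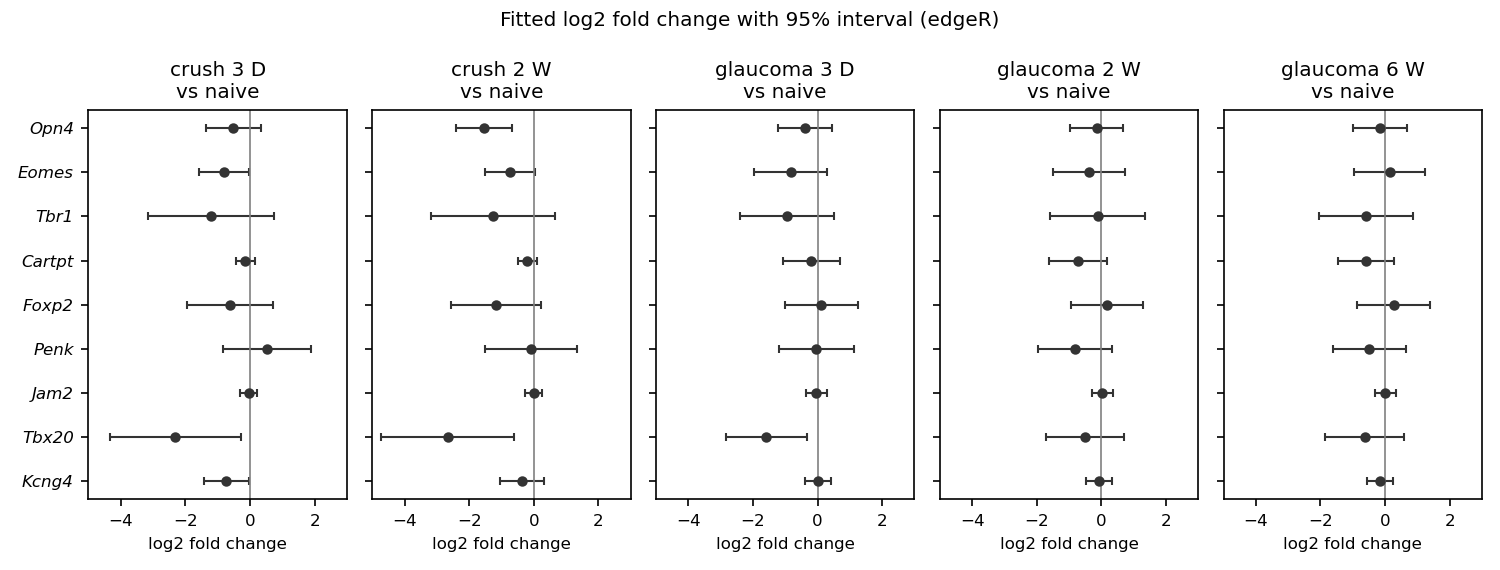
Fitted log2 fold change (points) with its 95% interval (bars) for each subtype gene in the 5 injured groups against naïve retina, n = 2 pools per group. The intervals of Opn4 at crush 2 W, of Eomes and Kcng4 at crush 3 D and of Tbx20 at crush 3 D, crush 2 W and glaucoma 3 D lie below 0, and those of Tbr1, Foxp2 and Penk are wide.

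Taking the 9 genes as a list, 8 had a log2 fold change below 0 at crush 3 D, 9 at crush 2 W, 7 at glaucoma 3 D, 7 at glaucoma 2 W and 6 at glaucoma 6 W, and these comparisons share the same naïve pools. The median log2 fold change was -0.62, -0.74, -0.19, -0.15 and -0.16 in that order, where the median over all genes tested lay between -0.004 and 0.012. At crush 2 W, 6 members (Cartpt, Opn4, Foxp2, Kcng4, Eomes and Tbx20) had both pools below both naïve pools, against 19.9% of all genes tested. At crush 3 D it was 4 members against 19.1% of all genes, at glaucoma 3 D it was 2 against 20.2%, at glaucoma 2 W it was 2 against 19.1%, and at glaucoma 6 W it was 3 against 21.4%. The glaucoma counts are near the background. All these counts rest on CPM. On the FPKM scale, Foxp2 at crush 2 W (0.187 and 0.287) overlapped the naïve pools (0.842 and 0.264). Cartpt, 1 of the 4 members at crush 3 D, also overlapped on that scale, at 193.5 and 227.6 FPKM against 232.1 and 215.7 in naïve. At crush 2 W, 2 members (Opn4 and Foxp2) lay below both crush 3 D pools, against 18% of all genes. At 3 D, 3 members (Foxp2, Kcng4 and Tbx20) had both crush pools below both glaucoma pools, against 15.4% of all genes, and 1 (Penk, 29.1 and 15.3 against 11.2 and 14.2 CPM) had both above, against 17.9%. At 2 W, 4 members (Opn4, Tbr1, Foxp2 and Tbx20) had both crush pools below both glaucoma pools, against 20.1%, and 0 had both above.

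The 8 pan-RGC markers, which the study itself examined in these retinas and which are no independent evidence of direction, had a median log2 fold change of -3.58 at crush 2 W. Of these, 5 were called lower, where 0.313% of all genes tested were called: Rbpms2, Pou4f1, Sncg, Rbpms and Tubb3. By edgeR, Pou4f2 (-3.922, adjusted p 0.0789), Pou4f3 (-3.905, adjusted p 0.204) and Thy1 (-0.967, adjusted p 0.455) were not called. All 8 had both crush 2 W pools below both naïve pools, against 19.9% of all genes. Rbpms2, an RNA-binding protein of RGCs, fell from 46.0 and 37.3 CPM to 2.67 and 0.720, a log2 fold change of -4.76 (SE 0.42, adjusted p 0.0143). Sncg, gamma-synuclein, fell from 255 and 204 CPM to 24.3 and 24.0 (-3.25, SE 0.13, adjusted p 0.00156). Of the 9 subtype genes, only Tbx20, at 15.7%, stood at under 20% of its naïve mean at crush 2 W, while 6 of the 8 pan-RGC markers stood at 11.4% or less. The difference between the lists was not tested.

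**Figure D4:**
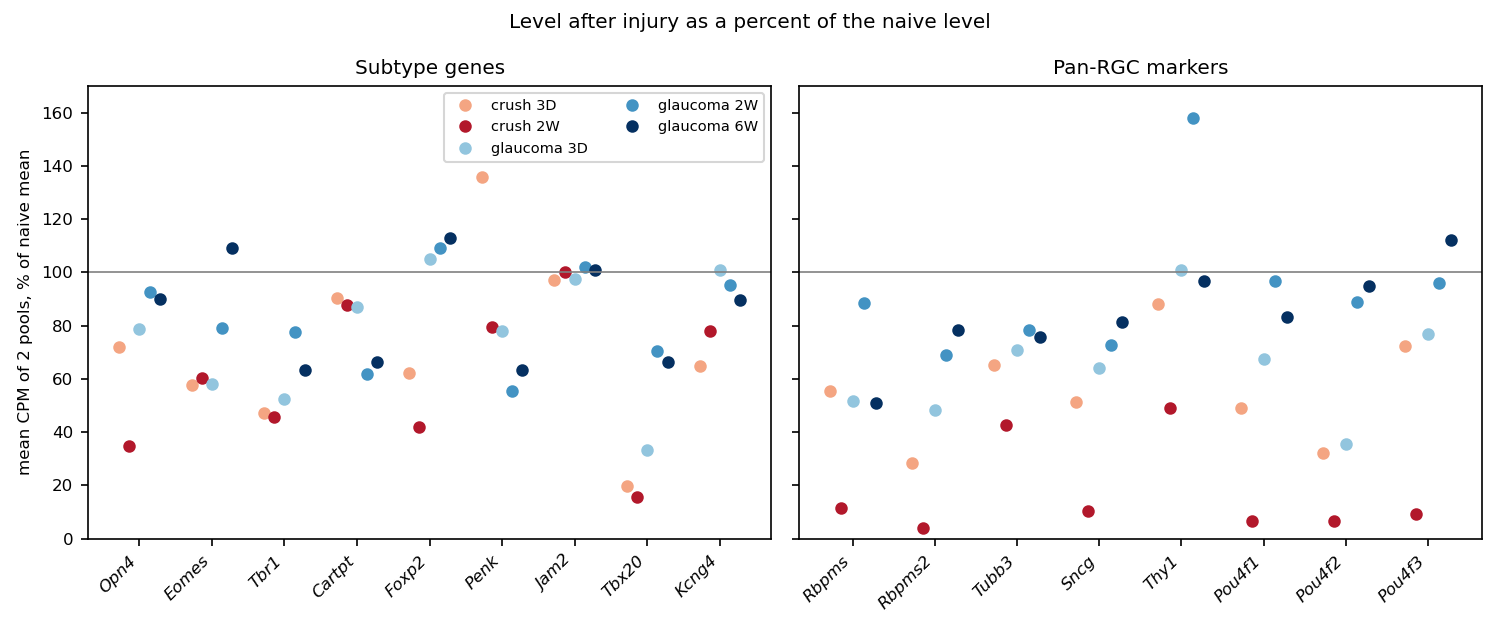
Mean CPM of the 2 pools of each injured group as a percent of the naïve mean, for the 9 subtype genes (left) and the 8 pan-RGC markers (right). At crush 2 W the pan-RGC markers range from 4.07% (Rbpms2) to 49.2% (Thy1) of naïve, and the subtype genes from 15.7% (Tbx20) to 100% (Jam2).

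Among 20 further genes that mark some RGC types, 2 were called lower and 0 higher at crush 2 W (median log2 fold change -0.44). These were Trarg1 (from 39.2 and 33.9 CPM to 0.972 and 1.72, log2 fold change -4.79, adjusted p 0.0103) and Irx4, an Iroquois transcription factor (from 6.04 and 4.00 to 0.0935 and 0.139, -5.42, adjusted p 0.0221). Both were also lower at crush 2 W than at glaucoma 2 W, with log2 fold changes of -4.55 (adjusted p 0.00996) and -5.09 (adjusted p 0.0411). Of the other 18 genes none was called in this comparison, nor was any of the 20 in crush 3 D or the glaucoma groups against naïve. Not all of the 20 lay lower after crush. At crush 2 W against naïve, 15 had a log2 fold change below 0, and the values ran from -5.42 to 0.48. At crush 3 D it was also 15, and the values ran from -1.60 to 1.54.

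Apart from microglia and macrophages, the markers of other retinal cells had medians near 0 at crush 2 W. The median log2 fold change was -0.07 for 10 amacrine cell markers, 0.04 for 10 bipolar cell markers, 0.07 for 10 photoreceptor markers, -0.10 for 10 endothelial markers and 0.11 for 7 Müller glia markers, and none of these genes was called in any of the 8 comparisons. Single genes of these lists ran from -0.66 to 0.51 at crush 2 W. The photoreceptor marker Sag was at 0.49 with an adjusted p of 0.0177 by edgeR, short of the fold limit for a call. The 10 microglia and macrophage markers had a median of 1.39 at crush 2 W with 0 called, and their summed level was 62.25 to 65.91 CPM in the naïve and 157.3 to 179.2 in the crush 2 W pools. Their part in the members' values was not tested. No marker of these lists was at 0 in any retina library. The 6 markers of oligodendrocytes, cells found in the optic nerve and not in mouse retina, had a median of -0.55 at crush 2 W. Their summed level was 120.6 and 131.9 CPM in the naïve pools and 88.24 and 95.29 at crush 2 W. Where these RNAs came from was not tested. The 10 housekeeping genes had a median of 0.01.

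Between the 2 alternative Opn4 transcripts the share was not stable. Opn4-202 took 33.9% of the gene's counts in the female naïve pool and 100% in the male, and 60% and 40.3% at crush 2 W. Eomes-201 likewise ran from 0% to 100% over the 12 libraries. For Cartpt, with many more reads, Cartpt-202 took 57.4% to 68.2%, and for Jam2, Jam2-202 took 87.8% to 96.3%. Differences in transcript share between groups were not tested.

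Of the members, 3 share exon bases with a gene on the opposite strand, and whether the counting used strand is not given in the sources used here, so reads of such a pair cannot be told apart. Opn4 shares 130 bases with Gm49012, which had 0 to 8 counts in the retina libraries. Eomes shares 118 bases with Gm33460 (2 to 32 counts), and Penk shares 233 with A830012C17Rik (0 to 4 counts). In the files' build, GRCm38, Opn4 spans chr14:34590618-34600142, Eomes chr9:118478212-118486132, Tbx20 chr9:24718138-24774303 and Tbr1 chr2:61802930-61814114. Jam2 spans chr16:84774123-84825928, Foxp2 chr6:14901349-15441977, Cartpt chr13:99898489-99901091, Penk chr4:4133531-4138819 and Kcng4 chr8:119623854-119635680.

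The genes most like each member across the 12 retina libraries were found by Pearson's r of log2 CPM among 24693 genes, as a description. Opn4 was most like Sult4a1 (r = 0.94), Scn2b (0.938) and Ncs1 (0.936), and without both crush 2 W pools, the farthest from the median, these were 0.824, 0.804 and 0.84. Tbx20 was most like Gm15631 (0.925) and Lrfn5 (0.909), each 0.786 without its 2 extreme libraries. Eomes was most like Flrt1 (0.923, then 0.862) and Cartpt most like Rpl14 (0.985, then 0.915). For Kcng4 the likeness to Gm13341 was 0.915 and dropped to 0.176 without the male pools of crush 3 D and crush 2 W. Among the members themselves the highest r was 0.728, between Opn4 and Tbx20, followed by Opn4 with Foxp2 (0.618) and Opn4 with Eomes (0.6).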

How the data were processed

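Whole retinas were dissected, RNA of 2 mice of the same sex was pooled and 1 library was made per pool with an ultra-low input kit. The authors aligned read pairs of 150 bases to GRCm38 with HISAT2 2.2.1 and assembled them with StringTie 1.3.0, per the labels, against Gencode M25. Genes and transcripts were then given estimated counts by the authors with the conversion script of StringTie, in which 1 count stands for 75 bases of coverage (the median of coverage times length over count, in genes with 1 annotated transcript and at least 1000 counts), so an untrimmed pair adds 4. The deposited FPKM values are those of StringTie, and 15 values just below 0 were set to 0.

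Here, edgeR 4.0.16 (R 4.3.3) was run on the rounded estimated counts with TMM factors, filterByExpr (minimum count 10, total 15) and quasi-likelihood tests with terms for group and sex. Crush groups and naïve were fitted together (22671 genes), glaucoma groups and naïve together (23301) and all groups for crush against glaucoma (24693). P-values were adjusted by Benjamini and Hochberg over all genes tested, and a call needed an adjusted p below 0.05 and a log2 fold change beyond 1 in size. CPM used TMM factors over the 12 retina libraries. Alternatives were DESeq2 1.42.0, RLE factors, no filter, no sex term, other libraries in the fit, limma 3.58.1 on log2(FPKM + 0.1) for genes with a mean FPKM of at least 0.1, and leaving out each library. The steps were tested on simulated data. The simulated libraries varied less than the real ones and changes were set only in better covered genes. The power for genes with few counts was therefore not measured. The named genes are the 9 members, the pan-RGC markers, at most 3 called genes of each further list, Sag and the 3 genes most like a member. Members, lists and tests were chosen with earlier results of these data known. The letters of the TATA box, homeodomain (TAATTA) and cAMP response (TGACGTCA) motifs were added after the promoter sequences had been read. RefSeq windows of Cartpt and Tbr1 lie in annotated exons and were not printed. Gene overlaps used Gencode M21 (GRCm38). Intervals cover the model's error at n = 2 pools per group.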

Additional observations from a re-analysis of the deposited data

Results flagged for a closer look

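Thy1, a surface protein used as a pan-RGC marker, lay on opposite sides of the naïve pools after the 2 injuries at 2 W. Both glaucoma 2 W pools (44.4 and 39.5 CPM) lay above and both crush 2 W pools (10.98 and 15.2 CPM) lay below the naïve pools (15.6 and 37.5 CPM), which put the group means at 158% and 49.2% of the naïve mean. Against naïve, the log2 fold change was 0.84 at glaucoma 2 W (interval -0.12 to 1.80, adjusted p 0.791) and -0.97 at crush 2 W (adjusted p 0.455), so neither passed the test. The naïve pools themselves differed, and glaucoma 2 W was at 284% of naïve in the female pool and at 105% in the male. The difference between the injuries was a log2 fold change of -1.74 (SE 0.42, 95% interval -2.66 to -0.82), with an unadjusted p of 0.00178 and an adjusted p of 0.272 by edgeR, so it did not pass the test. None of the 9 subtype genes lay on opposite sides of naïve in this way. Groups of 2 pools are too small to look for a single outlying library.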

How the results depend on the processing

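Calls of single members did not depend on the settings run, with 1 exception: 0 of 9 were called in each of the 8 comparisons by edgeR, by DESeq2, with RLE size factors, without the filter, without the sex term, with other libraries in the fit and by limma on log2 FPKM, and leaving out 1 library gave 0 in all but crush 2 W against glaucoma 2 W, where the range was 0 to 1 (Cartpt, without the female glaucoma 2 W pool). By limma, which kept genes with a mean FPKM of at least 0.1, Tbx20 was not tested in the comparisons of crush and naïve retinas. The number of all genes called moved far more. In the order crush 3 D against naïve, crush 2 W against naïve, glaucoma 3 D against naïve, glaucoma 2 W against naïve, glaucoma 6 W against naïve, crush 2 W against crush 3 D, crush 3 D against glaucoma 3 D and crush 2 W against glaucoma 2 W, DESeq2 called 136, 346, 161, 100, 116, 158, 33 and 182 genes where edgeR called 5, 71, 1, 0, 2, 11, 2 and 28, and edgeR without the filter on low counts called 53, 174, 15, 17, 21, 69, 5 and 86. Without the sex term the count was 12 for crush 3 D against naïve, 2 for glaucoma 3 D against naïve, 1 for glaucoma 2 W against naïve, 31 for crush 2 W against crush 3 D and 1 for crush 3 D against glaucoma 3 D. With all 12 retina libraries in one fit the count was 0 for crush 3 D against naïve and 2 for glaucoma 3 D against naïve. With naïve and that time only the count was 1 for crush 3 D against glaucoma 3 D. With limma on log2 FPKM the count was 3 for crush 3 D against naïve, 29 for crush 2 W against naïve, 1 for glaucoma 2 W against naïve and 0 for crush 3 D against glaucoma 3 D. Leaving out 1 library gave 29 to 84 for crush 3 D against naïve, 94 to 186 for crush 2 W against naïve, 3 to 13 for glaucoma 3 D against naïve, 0 to 13 for glaucoma 2 W against naïve, 0 to 25 for glaucoma 6 W against naïve, 31 to 111 for crush 2 W against crush 3 D, 2 to 18 for crush 3 D against glaucoma 3 D and 20 to 53 for crush 2 W against glaucoma 2 W (the lone pool left in a group is assumed to vary like the others). The cause of these shifts was not tested, except that fewer samples or more genes enter the fit by construction. Where a setting other than leaving out 1 library changed the sign of a log2 fold change, the changed value was near 0. Jam2 was 0.0045 with all 12 libraries in the fit (crush 2 W against naïve). For crush 3 D against glaucoma 3 D, Eomes was -0.032 without the sex term and -0.023 by limma on log2 FPKM. In the same comparison Tbr1 was 0.10 with naïve and that time only. Kcng4 was -0.0056 by limma on log2 FPKM (crush 2 W against crush 3 D). Its edgeR value there was not near 0, at 0.37 (interval -0.33 to 1.06), so the count and FPKM scales differed for this gene.

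Leaving out 1 library turned the sign of some uncalled members. For crush 3 D against naïve the range was -2.35 to 0.22 for Tbr1, -1.36 to 0.35 for Foxp2, -0.20 to 1.60 for Penk and -0.11 to 0.0026 for Jam2. For crush 2 W against naïve the range was -2.37 to 0.19 for Tbr1, -1.28 to 0.96 for Penk and -0.069 to 0.047 for Jam2. For glaucoma 3 D against naïve the range was -0.69 to 0.22 for Cartpt, -0.53 to 1.01 for Foxp2, -0.96 to 0.71 for Penk, -0.18 to 0.10 for Jam2 and -0.11 to 0.16 for Kcng4. For glaucoma 2 W against naïve the range was -0.44 to 0.18 for Opn4, -1.13 to 0.66 for Tbr1, -0.47 to 1.06 for Foxp2 and -0.013 to 0.072 for Jam2. For glaucoma 6 W against naïve the range was -0.44 to 0.17 for Opn4, -0.61 to 0.68 for Eomes, -0.42 to 1.11 for Foxp2, -1.04 to 0.21 for Penk and -0.080 to 0.090 for Jam2. For crush 2 W against crush 3 D the range was -0.16 to 0.28 for Eomes, -0.79 to 0.81 for Tbr1, -0.20 to 0.099 for Cartpt, -1.43 to 0.14 for Foxp2, -1.91 to 0.33 for Penk, -1.85 to 0.73 for Tbx20 and -0.13 to 0.94 for Kcng4. For crush 3 D against glaucoma 3 D the range was -0.44 to 0.29 for Opn4, -0.50 to 0.72 for Eomes, -1.03 to 0.79 for Tbr1, -0.28 to 0.46 for Cartpt and -0.16 to 0.15 for Jam2. For crush 2 W against glaucoma 2 W the range was -0.69 to 0.0040 for Eomes, -0.076 to 1.38 for Cartpt, -0.26 to 1.49 for Penk and -0.092 to 0.034 for Jam2. The members' sign stayed the same in every other case of the settings run. Depth limits the low genes most, since at the depth of these libraries 3 counts are at 0.0561 to 0.148 CPM. An untrimmed read pair adds 4 counts, so 3 counts are no detection floor. The lowest Tbx20 value, 0.139 CPM, rests on 5 counts, little more than such a pair adds.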
